A study of Rattus norvegicus with 11 samples.

Results

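The flavin monooxygenase genes Fmo1, Fmo2, Fmo4 and Fmo5 were examined in the soleus muscle of adult rats whose mothers had eaten different diets. They are 4 of the 16810 rows of the deposited count table and were found by symbol; all 4 were among the 10814 genes that passed a filter on low counts. They do not make up the whole family in the rat, and other family members are not described here. The set was chosen by the CPM values of Fmo1 and Fmo2 (CPM, counts per M, where M is mega), which separated the diet groups in these same libraries, so the diet difference of the set is described without a test.

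The animals were 11 male Sprague Dawley offspring, each from a different litter. In the high-fat group (n = 5) the mothers ate a lard-based diet with 20% sucrose and, in the labels, 23.3% or 23.5% fat. In the control group (n = 6) the mothers ate chow with 10% sucrose and 6% or 7% fat. The diets ran from 3 weeks before mating through pregnancy and lactation. All offspring were weaned at day 21 onto standard chow, and muscle was taken at 12 months after a short fast and inhaled anaesthetic; the groups shared age, sex, strain and adult diet. The soleus, a postural hind limb muscle made mostly of slow fibres, was sequenced whole, and in such bulk samples fewer cells of a type and less RNA per cell cannot be told apart.

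Counted reads per library came to 10.2 to 15.4 M, and 12333 to 12886 genes had at least 1 read. Muscle fibre markers dominated as the tissue label says, with summed levels of 142871 to 222374 CPM in the high-fat group and 169752 to 222143 CPM in the control group over 12 measured markers. No gene passed edgeR's quasi-likelihood test of maternal diet at an adjusted p of 0.05 (0.0% of 10814, and 523 genes or 4.84% at an unadjusted p under 0.05). DESeq2 called 7 genes and edgeR's likelihood ratio test 8.

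Flavin monooxygenases sit in the membrane of the endoplasmic reticulum and carry a bound flavin cofactor. With NADPH and molecular oxygen they add an oxygen atom to nitrogen or sulphur in drugs, dietary amines and some of the body's own small molecules. FMO1 is the main form of adult rodent liver and kidney and, in the mouse, oxidises hypotaurine to taurine. FMO2 is known as the lung form in many mammals. FMO4 is expressed at low levels in many tissues and its substrates are poorly known. Human FMO5 has little activity on typical family substrates and instead inserts oxygen into ketones.

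In the RefSeq annotation of the rat assembly GRCr8, 3 of the 4 genes, Fmo4, Fmo1 and Fmo2, follow each other on chromosome 13. Fmo1 and Fmo2 are both read from the minus strand. Fmo5 is on chromosome 2, on the plus strand, and its span overlaps that of Chd1l, which was not used here. The build behind the deposited counts is unknown, so gene spans are not given.

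The regions around the RefSeq start sites of Fmo1 and Fmo2 are shown because these are the adjacent genes whose levels separated the diet groups. Each window holds 300 bases, most of them before the start site, 5′ to 3′ on the gene's own strand, at chr13:77747617-77747916 for Fmo1 and chr13:77777485-77777784 for Fmo2 in GRCr8. Capitals mark matches to any of the motifs searched on both strands. These were the TATA box (TATAAA), the CCAAT box (CCAAT), a part of the glucocorticoid receptor site (AGAACA) and the FoxO site (GTAAACA). The antioxidant response element (TGACNNNGC) and the xenobiotic response core (GCGTG) were also searched.
Fmo1: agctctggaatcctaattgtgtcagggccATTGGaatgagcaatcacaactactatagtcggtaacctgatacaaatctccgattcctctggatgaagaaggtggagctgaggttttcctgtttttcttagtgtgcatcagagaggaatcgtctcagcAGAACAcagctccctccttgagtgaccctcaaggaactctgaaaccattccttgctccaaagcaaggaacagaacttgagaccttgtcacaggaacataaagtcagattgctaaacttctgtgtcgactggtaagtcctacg
Fmo2: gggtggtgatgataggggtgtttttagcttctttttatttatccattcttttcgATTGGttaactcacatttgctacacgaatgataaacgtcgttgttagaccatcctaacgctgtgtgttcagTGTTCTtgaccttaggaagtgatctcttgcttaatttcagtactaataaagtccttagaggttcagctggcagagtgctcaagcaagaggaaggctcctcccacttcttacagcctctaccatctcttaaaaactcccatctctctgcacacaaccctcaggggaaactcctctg
Both windows held 1 CCAAT match and 1 AGAACA match, none of which overlapped. CCAAT, the box bound by nuclear factor Y, began 221 bases before the start site in Fmo1 and 196 bases before it in Fmo2, on the reverse strand in both. AGAACA, a part of the site bound by the glucocorticoid receptor, began 92 bases before the start site on the gene's strand in Fmo1. In Fmo2 it began 125 bases before the start site, on the reverse strand. Of 33469 RefSeq windows of this length, 37.5% held CCAAT and 20.7% held AGAACA, so such matches are frequent, and a match is not evidence of binding. The other motifs were not found in either window; the TATA box occurs in 14.2% of windows, the FoxO site in 3.78%, the antioxidant response element in 12.1% and the xenobiotic response core in 29.7%. The Fmo5 window, which lies inside the gene's RefSeq span and so belongs to an internal start site, held only a xenobiotic response core among the motifs searched, on the reverse strand and 146 bases before that site. The start site used for Fmo2 also lies inside that gene's RefSeq span, so its motif distances are not from the outermost start. Guanine and cytosine made up 45.7% of the Fmo1 window, 43.3% of the Fmo2 window and 48.0% of the Fmo5 window. Windows were matched for 3 of the 4 genes.

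Levels below are CPM with TMM scaling (edgeR's trimmed mean scaling factors). Because CPM takes no account of transcript length, levels are compared between animals and not between genes.

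Fmo1 read levels were 31.8, 27.2, 30.6, 28.7 and 32.9 CPM in high-fat animals 1 to 5. In the 6 control animals the lowest was 16.3 CPM, the median 21.5 CPM and the highest 23.4 CPM. The groups did not overlap: the lowest high-fat animal had 1.16 times the level of the highest control animal. High-fat animals averaged 30.2 ± 2.31 CPM and control animals 20.8 ± 2.78 CPM (SD, n = 5 and 6, as for the other genes), and edgeR fitted a log2 fold change of 0.54 ± 0.11 (SE). The animals of each group were alike in Fmo1, with a coefficient of variation of 7.63% in the high-fat group and 13.4% in the control group. Raw counts were 255 to 551 per high-fat library and 225 to 327 per control library.

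For Fmo2, high-fat animals 1 to 5 had 36.4, 35.2, 34.3, 64.2 and 40.2 CPM. The control animals had a lowest value of 19.9 CPM, a median of 23.4 CPM and a highest value of 31.2 CPM. Here too the groups did not overlap, though the gap between them was narrower, with the lowest high-fat animal at 1.10 times the highest control animal. High-fat animal 4 stood apart from the other 4 animals of its group. The means were 42.0 ± 12.6 CPM in the high-fat group and 24.5 ± 4.24 CPM in the control group, a log2 fold change of 0.78 ± 0.17 (SE). Without high-fat animal 4 the high-fat mean was 36.5 ± 2.60 CPM (SD) and the log2 fold change was 0.58.

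Fmo1 and Fmo2 are 2 of the 22 genes whose high-fat values all lay above every control value (0.203% of genes tested, with 0.166% the other way round). That separation is what picked them, so nothing is read from it.

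Fmo4 was measured at 2.58, 1.92, 4.19, 3.89 and 3.10 CPM in high-fat animals 1 to 5, and in the control group at 1.63 CPM at the lowest, 1.97 CPM at the median and 4.11 CPM at the highest. The groups overlapped, with 1 high-fat animal above all controls and 4 of 5 above the control median. The means were 3.14 ± 0.930 CPM in the high-fat group and 2.37 ± 0.956 CPM in the control group (log2 fold change 0.41 ± 0.29 SE). These levels rest on 18 to 61 reads per high-fat library and 18 to 60 per control library, so single animals are imprecise. The fold change was 0.62 without control animal 5, the highest control.

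Fmo5 reached 3.58, 1.71, 2.09, 4.84 and 4.18 CPM in high-fat animals 1 to 5. Among control animals the lowest value was 0.872 CPM, the median 2.52 CPM and the highest 4.23 CPM. Animals of 1 group differed more in Fmo5 than the group means did: the highest was 2.84 times the lowest in the high-fat group and 4.85 times in the control group. The means were 3.28 ± 1.34 CPM in the high-fat group and 2.70 ± 1.21 CPM in the control group, a log2 fold change of 0.31 ± 0.37 (SE) from 16 to 76 reads per high-fat library and 12 to 45 per control library. It was 0.12 without control animal 6 or without high-fat animal 4, 0.48 without control animal 4 and 0.46 without high-fat animal 2.

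**Figure D1:**
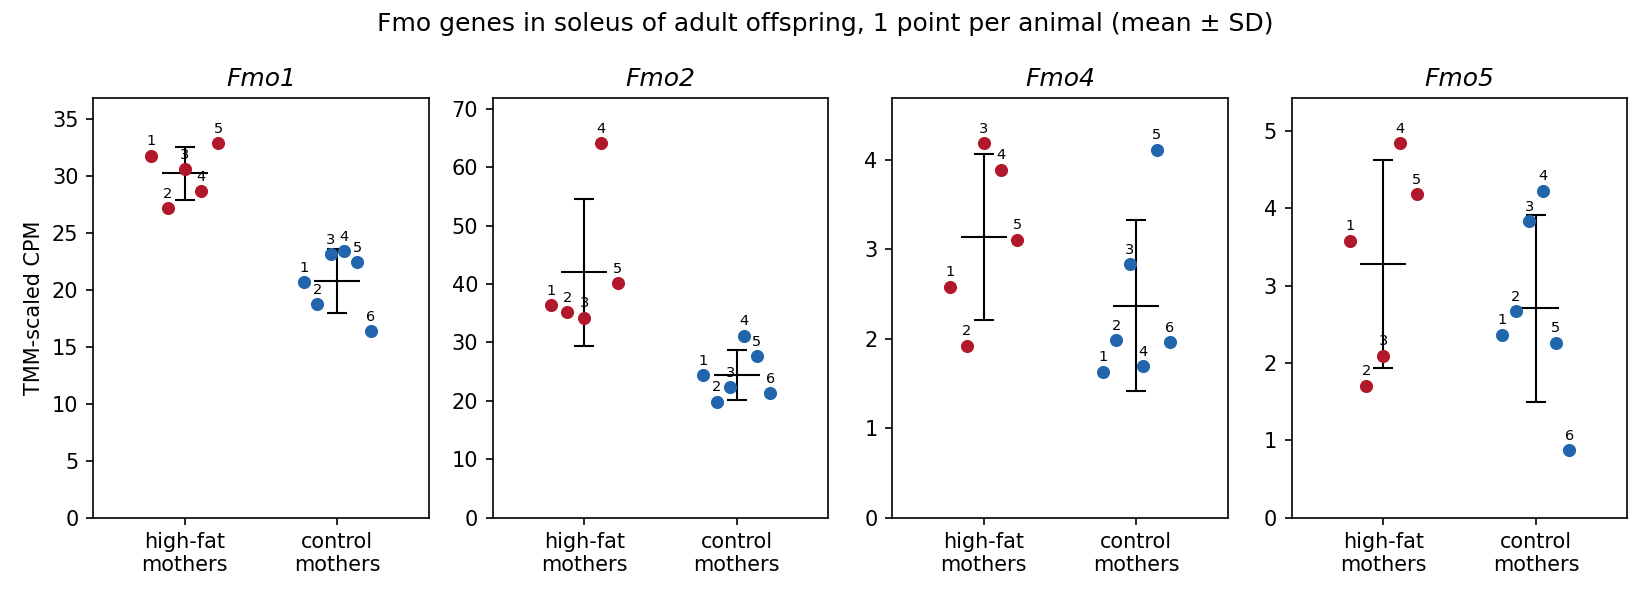
TMM-scaled CPM of each Fmo gene (y axis, a scale per gene from 0) in animals of high-fat mothers (red, left) and control mothers (blue, right), 1 numbered point per animal, with bars for mean and SD. Fmo1 and Fmo2 do not overlap between groups, with high-fat animal 4 at 64.2 CPM for Fmo2, while Fmo4 and Fmo5 overlap.

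The labels give no batch. Animal names begin with A, C or H, and each letter holds animals of both diets. For Fmo1 the log2 ratio of high-fat to control means was 0.78 among A animals (1 high-fat, 3 control), 0.51 among C animals (2 and 2) and 0.26 among H animals (2 and 1). For Fmo2 it was 0.81, 0.59 and 0.67 in the same order. Since the groups of both genes do not overlap, that direction was fixed by their choice. The Fmo4 ratios were 0.21, 0.60 and 0.78, and those of Fmo5 were 1.11, -0.13 and -0.37, so Fmo5 differed in direction between letters. With the letter as a covariate the fitted log2 fold changes were 0.53 for Fmo1, 0.68 for Fmo2, 0.52 for Fmo4 and 0.23 for Fmo5.

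**Figure D2:**
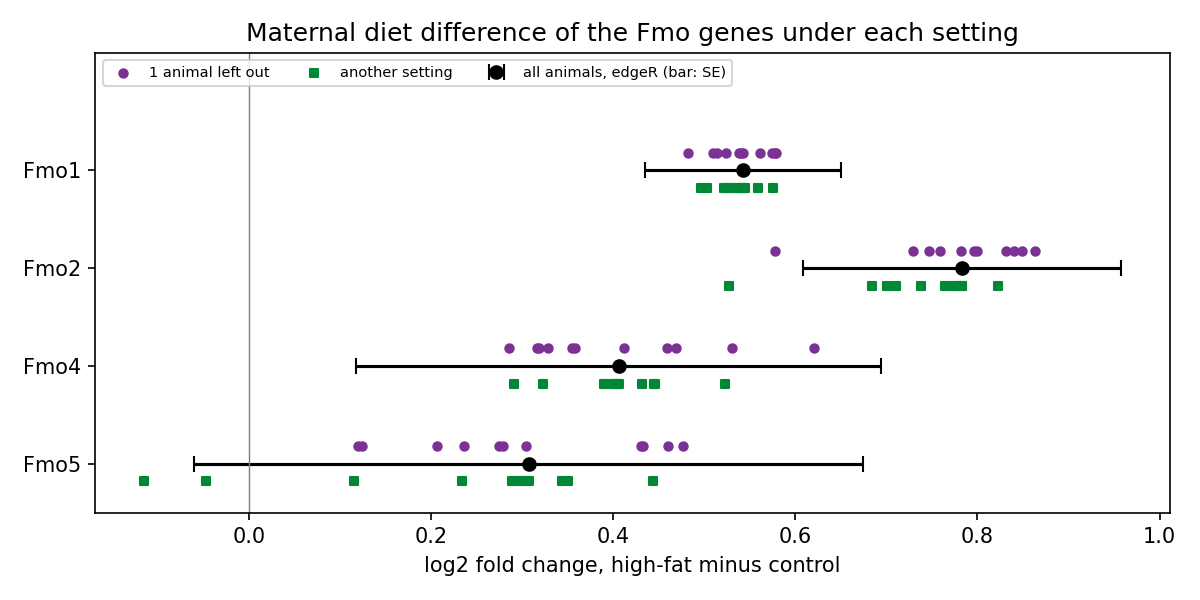
Fitted log2 fold change of each Fmo gene, high-fat minus control (x axis), with all animals (black, bar for SE), with 1 animal left out (purple) and under other settings (green: other scalings, filters, tools, covariates, a block, and high-fat animals 4 and 5 left out together). Fmo1 ranges from 0.48 to 0.58, Fmo2 from 0.53 (those 2 animals left out) to 0.86, and Fmo5 lies on both sides of 0.

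Soleus also holds connective tissue, vessel, immune and fat cells, so markers of each were set beside the Fmo genes. Of 20 measured fibroblast markers, 17 averaged higher with the high-fat diet (50.9% of all genes did), with a median log2 fold change of 0.30 against 0.00 over all genes tested, and none was called. The fibroblast markers summed to 5152 to 11930 CPM in the high-fat group and 3369 to 11041 CPM in the control group. Dcn, a small matrix proteoglycan, averaged 856 ± 315 CPM in the high-fat group and 573 ± 253 CPM in the control group (log2 fold change 0.58 ± 0.33 SE). Pi16, a surface marker of progenitor fibroblasts, had 0.50 ± 0.33, Gsn, the actin-severing protein gelsolin, 0.43 ± 0.28, and Pdgfra, the receptor that marks fibro-adipogenic progenitors, 0.41 ± 0.28. The list's median was 0.15 without control animal 6 or without high-fat animal 5. With the fibroblast score as a covariate the fitted log2 fold change was 0.50 ± 0.10 (SE) for Fmo1 and 0.74 ± 0.18 for Fmo2, 0.32 ± 0.31 for Fmo4 and 0.12 ± 0.32 for Fmo5.

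Macrophage markers averaged higher with the high-fat diet in 14 of 14 (median log2 fold change 0.65), and none was called. They summed to 339 to 2014 CPM in the high-fat group and 412 to 1194 CPM in the control group. Cd163, a haemoglobin scavenger receptor, averaged 57.6 ± 41.5 CPM in the high-fat group and 23.3 ± 7.66 CPM in the control group (log2 fold change 1.31 ± 0.45 SE). Mrc1, the mannose receptor, had 0.90 ± 0.41. Without high-fat animal 5 the list's median was 0.26. With the macrophage score as a covariate the log2 fold change was 0.50 ± 0.11 for Fmo1, 0.71 ± 0.18 for Fmo2, 0.43 ± 0.33 for Fmo4 and -0.05 ± 0.34 for Fmo5.

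Markers of other cells had medians nearer 0 with all animals. Endothelial markers were higher in 10 of 13 (median log2 fold change 0.13). They summed to 1079 to 2097 CPM in the high-fat group and 881 to 1813 CPM in the control group. Flt1, a receptor for vascular endothelial growth factor, had 0.47 ± 0.21 and Cldn5 0.38 ± 0.20. Emcn and Egfl7, next by p, had lower means with the high-fat diet (-0.32 ± 0.19 and -0.30 ± 0.20). Smooth muscle and pericyte markers were higher in 8 of 11 (0.08; 820 to 1290 CPM in the high-fat group and 709 to 1226 CPM in the control group), with the contractile gene Smtn at -0.16 ± 0.12 and Rgs5, a pericyte regulator of G proteins, at 0.27 ± 0.26. Adipocyte markers were higher in 5 of 9 (0.02; 510 to 926 CPM in the high-fat group and 580 to 964 CPM in the control group), with the lipid droplet genes Cidea at 0.30 ± 0.21 and Plin1 at -0.39 ± 0.60. The adipocyte median was -0.50 without high-fat animal 5 and 0.29 without control animal 3, and the endothelial median ran from 0.01 without high-fat animal 2 to 0.27 without high-fat animal 5. Muscle fibre markers were lower in 9 of 12 (-0.08), with the slow troponin gene Tnni1 at -0.13 ± 0.14. No marker in these lists was at 0 in every library, and none was called. The part of cell composition in the diet difference of the Fmo genes was not tested. The fits with a score as a covariate use the same diet contrast that picked Fmo1 and Fmo2. A score of marker RNA also does not measure cell numbers.

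Whether each Fmo gene followed a cell type between animals was asked apart from diet. Each gene's log2 CPM and each list's score (the mean over its markers of log2 CPM minus the marker's own mean) were centred within diet group. Pearson's r was then tested over all 86400 orders of the animals within groups, two-sided and exact. Of 24 relations, 4 genes by 6 scores, 0 passed Benjamini-Hochberg adjustment over the 24 (smallest adjusted p = 0.449), and 2 had an unadjusted p under 0.05. Over all genes, positive relations at an unadjusted p under 0.05 made up 11.0% (fibroblast), 4.2% (endothelial), 4.79% (smooth muscle and pericyte), 8.8% (adipocyte), 8.62% (macrophage) and 10.9% (muscle fibre). Negative ones made up 8.1%, 3.79%, 2.64%, 8.58%, 4.87% and 11.0% in the same order. After adjustment over all genes, 1.02% of genes were related positively and 0.0556% negatively to the fibroblast score, 0.944% and 0.0463% to the macrophage score, and 0.0278% positively to the endothelial score. With n = 11 a weak relation would not be detectable.

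Fmo5 had the highest r with the fibroblast score (r = 0.67, exact permutation p = 0.0366, adjusted over the 24 relations 0.449, and over all genes 0.228; Spearman's rho = 0.56, exact permutation p = 0.0943, adjusted 0.874). Across genes 9.12% had an r with that score at least that of Fmo5. Without control animal 6 and high-fat animal 2, the animals farthest from the median score, r was 0.15, so the relation rests on them. Fmo1 followed (r = 0.55, exact permutation p = 0.101, adjusted 0.782; rho = 0.49, exact permutation p = 0.155, adjusted 0.874), and its r was -0.08 without the same animals and 0.22 without control animal 6 alone. With scaling by library size only, r was higher for Fmo1 (0.80, exact permutation p = 0.00602, adjusted 0.130) and for Fmo5 (0.73, exact permutation p = 0.0216, adjusted 0.130). Fmo4 (r = 0.29) and Fmo2 (r = 0.22) had weaker relations to the score, with exact permutation p of 0.414 and 0.558.

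Fmo5 also had the highest r with the macrophage score (r = 0.63, exact permutation p = 0.0374, adjusted 0.449; rho = 0.65, exact permutation p = 0.0495, adjusted 0.874). Without high-fat animals 2 and 5, the farthest from the median, r was 0.53. The other genes had r of 0.45 (Fmo1), 0.30 (Fmo2) and 0.05 (Fmo4) with that score. With the muscle fibre score r was -0.43 for Fmo4, -0.41 for Fmo1, -0.37 for Fmo5 and 0.14 for Fmo2. The 12 relations to the endothelial, smooth muscle and adipocyte scores ran from -0.40 to 0.26. For the endothelial and smooth muscle scores each gene's r differed in sign between the diet groups taken apart. It ran from -0.96 to -0.29 in the high-fat group (n = 5) and from 0.14 to 0.71 in the control group (n = 6). These values within 1 group were not tested.

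**Figure D3:**
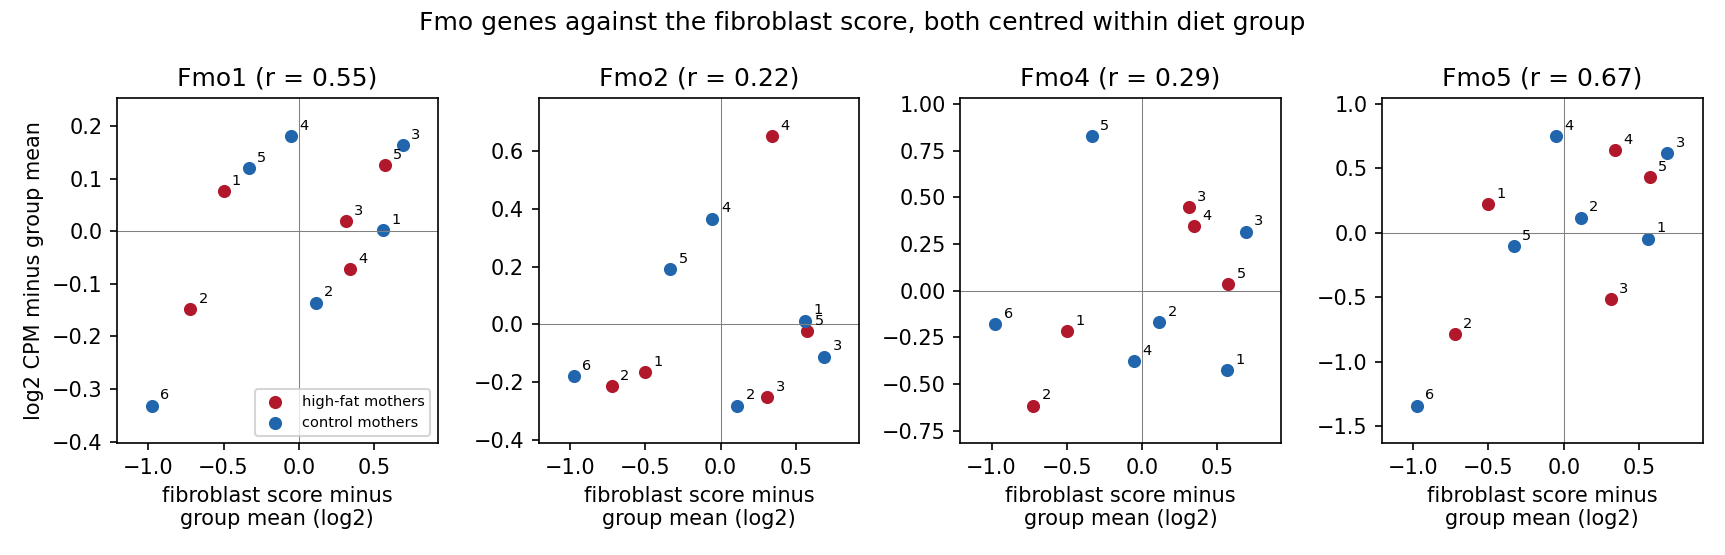
Each Fmo gene's log2 CPM against the fibroblast score, both as the difference from the animal's diet group mean (log2 units), with high-fat animals in red and control animals in blue, numbered as in the text. Control animal 6 and high-fat animal 2 lie at the left end, and the r of 0.67 for Fmo5 becomes 0.15 without them.

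Among themselves the 4 genes had positive correlations in 6 of 6 pairs after the same centring, and 0 of 6 passed adjustment. The largest was that of Fmo1 with Fmo5 (r = 0.75, exact permutation p = 0.0137, adjusted over 6 pairs 0.0824; rho = 0.67, exact permutation p = 0.0371, adjusted 0.194; r = 0.30 without control animal 6 and high-fat animal 2). It was past the threshold without high-fat animal 4 (r = 0.87, exact permutation adjusted p = 0.0156) and stood at 0.50 without control animal 6. Fmo2 with Fmo5 had r = 0.55 (exact permutation p = 0.0803, adjusted 0.241). The neighbours Fmo1 and Fmo2, which separated the diets together, had r = 0.29 within diet groups (exact permutation p = 0.359, adjusted 0.536). That value was 0.68 without high-fat animal 4 and 0.14 without control animal 4, the animals with the highest Fmo2 of each group. Fmo4 had r of 0.33 with Fmo1, 0.26 with Fmo2 and 0.18 with Fmo5.

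The genes most like each member were found by the same centred r over 11 libraries, among 10574 other genes with a mean of at least 1 CPM, as a description. For Fmo1 these were Ube2q1 (0.96), Txndc11 (0.96), the matrix protein gene Vwa1 (0.94), the tropomyosin gene Tpm4 (0.93) and the G protein subunit gene Gnai2 (0.91). For Fmo2 they included the mitochondrial ribosome gene Mrps27 (0.90), the translation factor gene Eif2b1 (0.87), Bcl3 (0.87) and Nfkb2 (0.86), of which Bcl3 and Nfkb2 encode members of the nuclear factor kappa B system. Bcl3 (0.61) and Nfkb2 (0.58) had lower values without high-fat animal 4, while Mrps27 kept 0.79. Fkbp5, a glucocorticoid-induced chaperone, and the metallothionein gene Mt1a, which were noticed after their values were seen, had 0.84 and 0.85, and 0.64 and 0.58 without that animal. For Fmo4 they were the Notch target Hes1 (0.96), Gldn (0.89), Lgi4 (0.88), Papss1 (0.88) and Cdk2 (0.87). For Fmo5 they were Ctdspl (0.93), Dram (0.93), the endothelial GTPase gene Rhoj (0.92), Fibin (0.92) and Pi4ka (0.92). No gene was among the 5 of more than 1 member.

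A further 4 lists covered enzymes around the monooxygenases, and no member of them was called. The other oxidation enzymes, mostly cytochromes P450, alcohol and aldehyde dehydrogenases and oxidases, were higher in 13 and lower in 8 of 21 measured (median log2 fold change 0.09, and 0.05 to 0.16 without any 1 animal), with 3 higher at an unadjusted p under 0.05 where 3.45% of all genes were. Xdh, which makes uric acid and hydrogen peroxide, averaged 116 ± 43.9 CPM in the high-fat group and 62.0 ± 12.5 CPM in the control group (0.91 ± 0.23 SE). Adh1, an alcohol dehydrogenase, had 0.84 ± 0.34, the P450 gene Cyp4b1 0.30 ± 0.14, and Cyp7b1, an oxysterol hydroxylase, 0.75 ± 0.39. Conjugation enzymes were higher in 9 and lower in 7 of 16 (0.03), with 2 higher at an unadjusted p under 0.05. Sult1a1, a phenol sulphotransferase, averaged 65.8 ± 7.06 CPM in the high-fat group and 46.2 ± 11.4 CPM in the control group (0.51 ± 0.15). The glutathione transferase genes Gstt1 (0.56 ± 0.18), Mgst2 (0.59 ± 0.28) and Gstt2 (0.29 ± 0.15) were next by p.

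Genes that supply NADPH, the cofactor of the monooxygenases, were higher in 7 and lower in 2 of 9. Their median log2 fold change was 0.08, and 0.05 to 0.14 without any 1 animal. H6pd, the hexose 6-phosphate dehydrogenase inside the endoplasmic reticulum, averaged 38.7 ± 9.39 CPM in the high-fat group and 27.4 ± 2.04 CPM in the control group (0.50 ± 0.14). The cytosolic malic enzyme gene Me1 had a lower mean and an unadjusted p under 0.05, as 1.39% of genes did (150.3 ± 9.86 CPM in the high-fat group and 180 ± 23.9 CPM in the control group, -0.26 ± 0.11), and the pentose phosphate gene Tkt (0.24 ± 0.16) was next by p. Taurine and glutathione genes were higher in 6 and lower in 3 of 9 (0.14, and 0.08 to 0.09 without control animal 1, control animal 4 or high-fat animal 4). Among them were Gclc, the rate-limiting subunit of glutathione synthesis (0.45 ± 0.17), Gss, which adds its last amino acid (0.23 ± 0.14), the taurine transporter gene Slc6a6 (0.14 ± 0.14) and Cdo1, which starts taurine synthesis from cysteine (0.35 ± 0.37). These 4 medians stood against 0.00 over all genes.

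**Figure D4:**
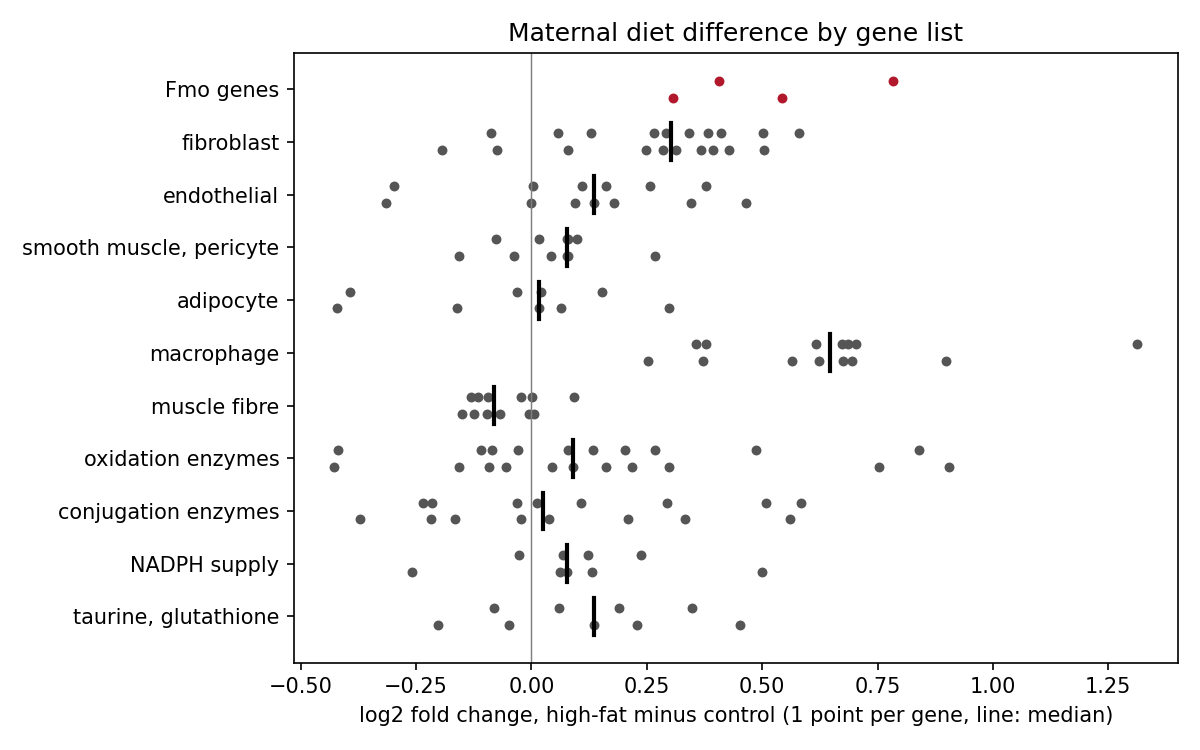
Log2 fold change, high-fat minus control (x axis), of each measured gene in the Fmo set (red) and in 6 cell type and 4 enzyme lists (grey), with a line at each list's median except for the Fmo set. The macrophage list has the highest median, 0.65, with the fibroblast list at 0.30, and the muscle fibre list lies at -0.08.

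Genes next to the Fmo genes in RefSeq gave a further view of position. Beside the chromosome 13 genes, Vamp4, a vesicle fusion protein, averaged 17.3 ± 1.01 CPM in the high-fat group and 18.1 ± 2.84 CPM in the control group (log2 fold change -0.07 ± 0.12 SE). Myoc, a secreted glycoprotein, averaged 403 ± 142 CPM in the high-fat group and 284 ± 108 CPM in the control group (0.50 ± 0.29), and ranged from 208 to 599 CPM in the high-fat group and from 155 to 445 CPM in the control group, so its groups overlapped. Beside Fmo5 on chromosome 2, Prkab2, a regulatory subunit of AMP-activated kinase, had 0.16 ± 0.19, Pde4dip 0.07 ± 0.16 and Sec22b -0.04 ± 0.13. None of these was called (edgeR quasi-likelihood adjusted p of at least 0.974).

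Body weight, total fat, abdominal fat and plasma insulin, given per animal in the labels, were set against the 4 genes within diet groups. Of 16 relations, 0 passed adjustment (smallest adjusted p = 0.589), and r ran from -0.53 to 0.61. The highest r was that of Fmo2 with abdominal fat (r = 0.61, n = 11, exact permutation p = 0.0374, adjusted 0.589; rho = 0.58, exact permutation p = 0.0743, adjusted 0.987). It was 0.63 without control animals 3 and 4, the farthest from the median, and 0.51 to 0.77 without any 1 animal. The 0.51 was found without high-fat animal 4 (exact permutation p = 0.259, adjusted 0.902), which had the highest Fmo2 and the most abdominal fat. The lowest was that of Fmo1 with body weight (r = -0.53, exact permutation p = 0.0736, adjusted 0.589; rho = -0.43, exact permutation p = 0.183, adjusted 0.987; r = -0.28 without control animal 6 and high-fat animal 4). Insulin, which high-fat animal 5 lacks (n = 10), had r of 0.43 with Fmo4, 0.34 with Fmo5, 0.24 with Fmo2 and 0.02 with Fmo1, and none of these had an exact permutation p under 0.05.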

How the data were processed

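Poly(A) RNA from 2 µg of total RNA per soleus was sequenced for 36 cycles, per the labels' protocols. The authors deposited raw read counts per gene symbol, 1 column per animal; FastQC, BWA, HTSeq and edgeR are named in the submitters' processing notes, without versions. The sources used here give no build, annotation or strand setting, so reads of overlapping antisense transcripts cannot be told apart. Columns were matched to animals by name, groups came from the diet label, and replicate numbers follow the order of the labels and pair no samples; each animal had its own litter. The deposited column names carry other numbers for most high-fat animals (1, 3, 4, 5 and 6 in the order used here) and the same ones for controls. High-fat animals 1 to 5 are C91, H1, C25, H20 and A37, and control animals 1 to 6 are C73, A110, C60, H10, A89 and A75.

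Genes were kept by filterByExpr (10814 kept, 5996 removed), scaled by TMM and tested by quasi-likelihood in edgeR, with p-values adjusted after Benjamini and Hochberg (threshold 0.05; common coefficient of variation 0.234). The SE of a log2 fold change is its size over the root of the F statistic. Log2 CPM used a prior count of 2. A gene with 0 counts may have had up to 3, or 0.195 to 0.295 CPM, a limit that covers counting error only. Relations used exact permutations within diet group. The members, the marker and enzyme lists and the tests were chosen with earlier results of these data known. Named genes were the members, up to 4 per list by smallest p, the 5 most like each member and the measured neighbours; not every gene so picked is reported. Listed markers under symbols with no row were not used. Spreadsheet-altered row names were kept in the fit but go unnamed. Sequences are RefSeq's for GRCr8. Both tests were tested on simulated data with known answers. Alternatives were other scalings, filters, tools, covariates, prior counts and centrings, and leaving out animals; leaving out high-fat animals 4 and 5 together, and a block for the column numbers, were chosen after seeing the data.

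Fits ran in edgeR 4.0.16, DESeq2 1.42.0 and limma 3.58.1 under R 4.3.3; relations and figures used SciPy 1.17.1, pandas 2.3.3, NumPy 2.4.6 and matplotlib 3.10.9 under Python 3.11.15.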

Additional observations from a re-analysis of the deposited data

Results flagged for a closer look

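Fmo2 in high-fat animal 4 was 64.2 CPM, next to 40.2 CPM in the nearest of the other 4 animals and 34.3 CPM in the lowest. The gap to the nearest animal was 0.802 of the group's whole range, above the critical value of 0.710 for 5 samples. Of 28 groups of values examined this way, 1 was flagged, and chance flags about 1 in 20. Its Fmo1 (28.7 CPM) and Fmo4 (3.89 CPM) lay within their groups' ranges, and its Fmo5 (4.84 CPM) was the highest of its group.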

How the results depend on the processing

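Over all alternatives run, the log2 fold change ranged from 0.48 to 0.58 for Fmo1, from 0.53 to 0.86 for Fmo2 and from 0.29 to 0.62 for Fmo4; the sign of the first 2 was fixed by their choice when animals are left out. That of Fmo5 turned to -0.047 with the macrophage score as a covariate and to -0.11 without high-fat animals 4 and 5, and ran from 0.12 to 0.48 without any 1 animal. The count of genes past the threshold was 0 with all animals and without any 1 animal, 7 with DESeq2 and 8 with edgeR's likelihood ratio test. At an unadjusted p under 0.05 there were 361 to 827 genes without any 1 animal, the most without high-fat animal 2. None of the relations to cell scores or animal measures passed under any alternative. Of the 6 pairs, 1 passed with diet groups pooled (Fmo1 with Fmo2, r = 0.78, permutation adjusted p = 0.0215, a value that holds the diet difference of both) and 0 to 1 without any 1 animal, the 1 being Fmo1 with Fmo5 without high-fat animal 4. The r of Fmo4 with the macrophage score was -0.014 with the name letter centred and ran from -0.47 to 0.37 without any 1 animal, and that of Fmo4 with Fmo5 ran from -0.043 to 0.34. With the name letter centred few orders of the animals remain, so that setting says little about p. The medians of the adipocyte, smooth muscle, muscle fibre, conjugation and oxidation lists lay on either side of 0 over the alternatives. Without high-fat animals 4 and 5 the fibroblast median was 0.002, the macrophage median 0.05 and the adipocyte median -0.80. The cause of these changes was not tested. The numbers in the column names are shared by 5 animals of each group. The deviations of same-numbered animals from their group means correlated at -0.35 to 0.04 across genes. What the numbers stand for cannot be told from 5 such pairs. With these numbers as a replicate block, 0 genes passed and 261 had an unadjusted p under 0.05, the log2 fold change was 0.52 for Fmo1, 0.70 for Fmo2, 0.39 for Fmo4 and 0.35 for Fmo5, and the macrophage median was 0.41. Counts of 12 to 76 reads limit the precision of Fmo4 and Fmo5.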
